A study of Mus musculus with 8 samples.

Results

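The 8 genes described here are complement genes measured in single nuclei of adult mouse hearts: C1qa, C1qb, C1qc, C1ra, C3, C4b, C7 and Serping1. They were taken by symbol from the 32285 genes of the count matrices, and all 8 were found. The labels list 8 libraries prepared with 10x Genomics droplets from nuclear RNA of female and male hearts. The animals were either non-transgenic (nTg) or carried a transgene that expresses the cell-cycle regulator CCNA2 constitutively (Tg). The promoter of the transgene, the age of the adults and the number of animals behind each library are not given in the sources used here. A matrix matched its own barcode list in 5 of the 8 libraries, namely replicate 1 of the nTg females and both replicates of each Tg sex. The groups are therefore 1 nTg female library, 2 Tg female libraries and 2 Tg male libraries, and no nTg male library.

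Complement is a cascade of blood and tissue proteins that marks microbes, dying cells and immune complexes for removal. C1q, built from the chains of C1qa, C1qb and C1qc, recognises targets and carries the proteases C1r and C1s. C1s cleaves C4, a step upstream of C3, the point where all branches of the cascade meet. C7 belongs to the late components that assemble into the membrane attack complex, and Serping1 encodes the C1 inhibitor, which inactivates C1r and C1s. The liver supplies much of the circulating protein, while tissue macrophages are a major source of C1q and fibroblasts make several other components locally.

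The 5 libraries gave 34224 nuclei after filtering, between 5773 and 8817 per library, with medians of 2079 to 3053 UMIs (unique molecules counted). Any 2 libraries shared 14 to 28 cell barcodes, at most 0.341% of the smaller. Xist was at 1860 to 2228 CPM (counts per 1000000 UMIs) in the fibroblasts of the 3 female libraries and at 0 and 0.337 CPM in those of the males, so sex labels and sex-linked transcripts matched. Ccna2 in cardiomyocytes went against 2 genotype labels, with 444 CPM in the library labelled nTg female 1 and 0.524 CPM in that labelled Tg female 1. The library labelled Tg female 2 stood apart: it was the shallowest per nucleus, and summed C1q outside macrophages was 70.7 CPM there against 9.30 to 15.4 CPM in the others. Results that rest on that library are given with and without it, or the text says where they are not. Nuclei were assigned to 12 cell types by marker genes, and 8 types with at least 50 nuclei in every library were tested. Values are UMIs summed over all nuclei of 1 type in 1 library, so fewer expressing nuclei and less RNA per nucleus cannot be told apart in them. Where 5 values are given, the 3 females come first (nTg 1, then Tg 1 and Tg 2) and the 2 Tg males last (1, then 2).

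C1qa, C1qb and C1qc lie side by side on the minus strand of GRCm38 chromosome 4, within 18.7 kb: C1qb at chr4:136880129-136886187, C1qc at chr4:136889804-136893065 and C1qa at chr4:136895917-136898803. RefSeq promoter windows (GRCm38.p6, 250 bases before to 50 after the start) were matched for 5 of the 8 genes, C1qb, C1qc, C1ra, C3 and C7. The 250 bases before the start are shown for C1qb and C1qc because both genes were read mainly from macrophages, which held a mean of 84.3% of C1qb and 86.5% of C1qc UMIs (55.7% and 61.9% in Tg female 2). Capitals mark the letters GAGGAA on either strand, the core bound by PU.1, a transcription factor of the myeloid lineage. The C1qb window is chr4:136886201-136886450 and the C1qc window chr4:136892915-136893164, both read on the minus strand.
C1qb: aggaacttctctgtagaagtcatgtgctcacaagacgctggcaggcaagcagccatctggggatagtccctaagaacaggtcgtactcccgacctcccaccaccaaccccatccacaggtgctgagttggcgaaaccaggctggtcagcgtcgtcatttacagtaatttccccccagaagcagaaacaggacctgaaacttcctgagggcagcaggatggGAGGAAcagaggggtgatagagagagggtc
C1qc: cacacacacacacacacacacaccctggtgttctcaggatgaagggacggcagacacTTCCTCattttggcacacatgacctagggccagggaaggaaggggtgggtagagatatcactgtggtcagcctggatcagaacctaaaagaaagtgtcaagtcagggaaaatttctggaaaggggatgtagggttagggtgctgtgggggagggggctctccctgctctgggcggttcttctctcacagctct
Each window held 1 such match. Of 32851 promoter windows of 250 bases before to 50 after the start, 28.3% held at least 1. A match thus describes these letters and is no evidence of binding.

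The C1q chains were macrophage transcripts. C1qa in macrophage nuclei was 1637, 1525, 715.5, 1641 and 1385 CPM in the 5 libraries. C1qb was 992, 1086, 612, 995 and 965 CPM. C1qc was 1131, 1254, 556, 1046 and 1045 CPM. Every chain was lowest in Tg female 2 and close in the other 4 libraries. The mean over libraries was 1381 ± 386 CPM for C1qa, 930 ± 184 CPM for C1qb and 1006 ± 266 CPM for C1qc (SD, n = 5). Among the tested types, the next was pericytes for C1qa and C1qb, at 19.0 and 13.7 CPM. For C1qc it was the endocardium, the lining of the heart's chambers, at 8.75 CPM. The ranges of macrophages and these next types did not overlap, and the macrophage mean was 72.8, 67.6 and 115 times the next. Among the 7 lower types, neighbours in the order overlapped for all 3 chains. Of the types not tested, B lymphocytes (72 nuclei) had means of 39.2, 31.1 and 44.9 CPM of C1qa, C1qb and C1qc. These came from 7, 4 and 6 UMIs. T or NK lymphocytes (126 nuclei) had 34.8 CPM of C1qc, from 12 UMIs. Unnamed nuclei had means of 116 CPM of C1qa and 86.1 CPM of C1qb.

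Most of the C1q signal came from macrophage nuclei. They held 83.7% of all C1qa UMIs as a mean over libraries, from 51.3% in Tg female 2 to 92.8%. After each nucleus was thinned to 1000 UMIs, a C1qa UMI was seen in 69.0%, 69.7%, 47.8%, 70.6% and 64.2% of macrophage nuclei, and unthinned in 86.8%, 84.2%, 68.1%, 86.3% and 83.6%. The thinned share in cardiomyocytes, which should lack C1q, was 0.621%, 0.256%, 1.71%, 0.308% and 0.170%. Median depths were 1784 to 2745 UMIs in macrophages and 5756 to 8021 UMIs in cardiomyocytes. UMIs of all 3 chains were found in the same nucleus for 68.8%, 65.4%, 33.4%, 63.3% and 61.7% of macrophage nuclei. No chain was seen in 5.50% to 9.01% of them.

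C1q outside macrophages was small except in Tg female 2. Summed C1q in all other named types was 15.4, 9.30, 70.7, 11.2 and 11.2 CPM, with exact Poisson 95% intervals of 66.6 to 75.0 CPM in Tg female 2 and upper bounds of at most 17.1 CPM elsewhere. As a share of the macrophage level, this was 3.75% in Tg female 2 and 0.241% to 0.409% in the other 4 libraries. In fibroblasts of Tg female 2, a thinned C1qa UMI was seen in 4.33% of nuclei, against 0.443% to 0.759% in the others. Summed macrophage markers in those fibroblasts were 248 CPM in Tg female 2 and 174 to 207 CPM in the others, with all 9 markers detected in every library. Rbpj, at 121 to 151 CPM, made up most of that sum. Lyz2 was 69.0 CPM in Tg female 2 against 8.86 to 11.7 CPM in the others. Mrc1, Csf1r, Adgre1 and Cd68 were also highest there. Mrc1 was 8.055 CPM against 3.167 to 4.599 CPM, and Csf1r 8.23 CPM against 2.479 to 3.539 CPM. F13a1, Cd163 and Rbpj were neither highest nor lowest in Tg female 2. Mertk alone was lowest there, at 10.2 CPM against 15.1 to 50.4 CPM. Whether free RNA in the droplets gave the C1q outside macrophages was not tested.

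**Figure D1:**
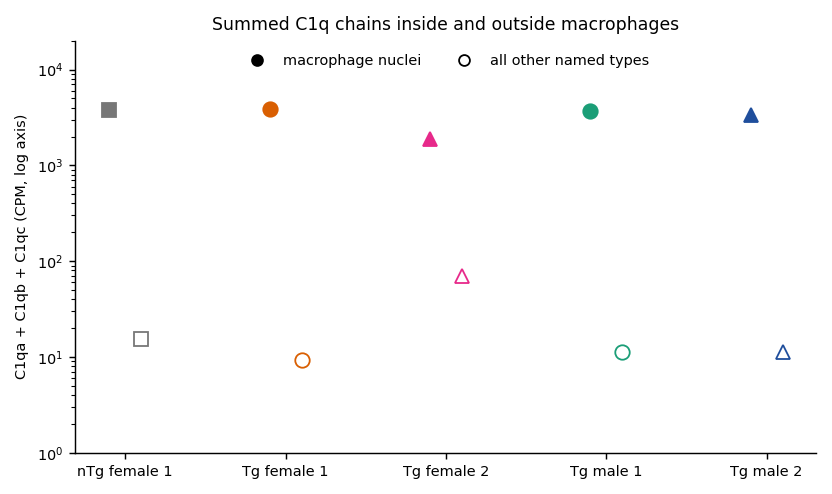
Summed C1qa, C1qb and C1qc (CPM, log axis) by library, in macrophage nuclei (filled) and in all other named types (open). Tg female 2 is lowest inside macrophages, at 1884 CPM, and highest outside them, at 70.7 CPM.

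Within macrophages, the level of C1qa differed between sub-clusters. The largest, led by Lyve1 and Folr2 (1276 nuclei), had C1qa at 1890, 1708, 797, 1839 and 1529 CPM. Nuclei led by MHC class II genes such as H2-Aa and Cd74 (660 nuclei), the antigen-presenting set, had 1619, 1480, 692, 1588 and 1342 CPM. Those led by Slc40a1, the iron exporter (310 nuclei), had 1541, 1343, 746, 1620 and 1225 CPM. In each library the Lyve1 sub-cluster was the highest of the 3, and the 3 ranges overlapped. A small sub-cluster led by Clec9a and Cd209a, dendritic cell genes (56 nuclei), had 59.7, 512, 377, 767 and 0 CPM of C1qa (the 0 from 7 nuclei, with an exact Poisson bound of 162 CPM), all under the other 3 sub-clusters of the same library described so far. Nuclei led by cardiomyocyte genes such as Pln and Ttn (175 nuclei) had a mean of 1041 ± 352 CPM and those led by Pdgfd and Dach1 (29 nuclei) 784 ± 421 CPM (SD, n = 5). A set of 6 nuclei led by Treml4 held 1 C1qa UMI. C1qb and C1qc were also highest in the mean in the Lyve1 nuclei, at 1042 and 1155 CPM.

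Sex comparisons used the 3 female and 2 male libraries, with genotype as a covariate, so that they rest on the 2 Tg female and 2 Tg male libraries. The covariate uses the genotype labels of nTg female 1 and Tg female 1, which Ccna2 contradicted. Values are log2 differences, female minus male, from edgeR's quasi-likelihood test with Benjamini-Hochberg adjustment over all genes tested in a type. In macrophages, 7 of the 8 genes passed the filter on low counts (all but C7) and 0 were called at an adjusted p under 0.05. DESeq2 also called 0. At an unadjusted edgeR p under 0.05 there was 1, Serping1, where 8.48% of all genes lay. Serping1 was 19.8 ± 9.76 CPM in the Tg females and 7.60 ± 0.243 CPM in the Tg males (SD, n = 2 each). Summed fibroblast markers in macrophages were 872 CPM in Tg female 2 and 243 to 383 CPM in the others. The Serping1 difference without Tg female 2 is not given. Of all 11885 genes tested there, 0.278% were called. C1qa differed by -0.45 (SE 0.31, edgeR adjusted p 0.776), C1qb by -0.22 (SE 0.27, adjusted p 0.896) and C1qc by -0.22 (SE 0.32, adjusted p 0.912). Without Tg female 2 the differences were 0.02, 0.15 and 0.27 (edgeR adjusted p 0.991, 0.819 and 0.604). Without Tg female 1, which leaves Tg female 2 alone in its group, they were -1.13, -0.73 and -0.96 and all 3 were called (edgeR adjusted p 0.000858, 0.0263 and 0.00447). Fits that leave out a library have 1 residual degree of freedom, and their p-values rest mainly on the spread edgeR shares over genes. The direction for C1q thus turned on the library Tg female 2.

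C1ra encodes the protease C1r, which C1q activates, and lies on the plus strand at chr6:124512405-124523443. Its near copy C1rb lies on the same strand at chr6:124570294-124581171, so reads shared between them could be split or dropped and C1ra is uncertain to that extent. C1rb was counted at 2.63 ± 2.53 CPM in fibroblasts (SD, n = 5). C1ra in fibroblasts was 75.7, 66.9, 43.8, 66.9 and 68.9 CPM, lowest in Tg female 2. In smooth muscle it was 49.2, 62.6, 48.0, 57.8 and 34.8 CPM, a range that overlapped that of fibroblasts. Pericytes, the contractile cells around capillaries, had 19.7, 26.8, 31.2, 21.8 and 24.2 CPM, below every smooth muscle library. Cardiomyocytes had 0.599 to 0.976 CPM. After thinning, 6.15% of fibroblast nuclei had a C1ra UMI (mean over libraries, SD 0.95), against 0.0707% of cardiomyocyte nuclei, and unthinned 15.2%. Mesothelial nuclei, from the outer lining of the heart, had 168, 91.7, 58.6, 0 and 137 CPM of C1ra from 3 to 48 nuclei and at most 21 UMIs a library, the 0 with a Poisson bound of 338 CPM. C1ra was thus found in fibroblasts, mural cells and mesothelial nuclei, and was not a macrophage transcript like the C1q chains it works with: macrophages had 1.56 to 10.2 CPM.

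Serping1, at chr2:84765387-84775444 on the minus strand, encodes the C1 inhibitor and was a fibroblast transcript first. Fibroblasts had 571, 534, 348, 577 and 639 CPM. Smooth muscle had 199.7, 189.5, 154.7, 142.8 and 170.0 CPM, pericytes 116, 143, 108, 131 and 128 CPM, and lymphatic endothelium 149, 130, 118, 115 and 97.0 CPM. Fibroblasts lay above every other tested type in all 5 libraries, 3.11 times smooth muscle in the mean, while smooth muscle, pericytes and lymphatic endothelium overlapped with their neighbours in the order. Endocardial nuclei followed at 17.6 to 41.8 CPM, and the mean of lymphatic endothelium, which did not overlap with them, was 4.04 times theirs. Fibroblast nuclei held 86.6% of all Serping1 UMIs. A Serping1 UMI was seen in 40.6%, 40.0%, 28.6%, 42.3% and 46.0% of thinned fibroblast nuclei and in 0.102% to 1.497% of thinned cardiomyocyte nuclei, and unthinned in 48.6% to 74.8% and 1.72% to 6.01%. Mesothelial nuclei, too few to be tested (3 to 48 a library), also carried it. A mean of 41.9% of their thinned nuclei had a Serping1 UMI (SD 15.2), against 39.5% of fibroblast nuclei (SD 6.53). They held 161 Serping1 UMIs over the 5 libraries.

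C3, the component on which all branches converge, lies at chr17:57203970-57228136, and C4b, which encodes C4, the component cleaved by C1s, at chr17:34728380-34743882, both on the minus strand. C7 lies at chr15:4988762-5063740 on the minus strand. The 250 bases before the start are shown for C3 and C7 because both were fibroblast transcripts with every female library below both males. Capitals mark the letters TTNNGNAA on either strand, the free-position form of the palindrome read by C/EBP factors, and in C7 also TTCNNNGAA, the GAS element read by STAT factors. The C3 window is chr17:57228137-57228386 and the C7 window chr15:5063774-5064023, both read on the minus strand.
C3: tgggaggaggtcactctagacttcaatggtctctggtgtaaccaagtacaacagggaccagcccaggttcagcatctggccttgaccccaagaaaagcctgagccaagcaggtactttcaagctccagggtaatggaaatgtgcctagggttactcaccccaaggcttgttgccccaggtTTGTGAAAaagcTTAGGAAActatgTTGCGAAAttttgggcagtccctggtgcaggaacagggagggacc
C7: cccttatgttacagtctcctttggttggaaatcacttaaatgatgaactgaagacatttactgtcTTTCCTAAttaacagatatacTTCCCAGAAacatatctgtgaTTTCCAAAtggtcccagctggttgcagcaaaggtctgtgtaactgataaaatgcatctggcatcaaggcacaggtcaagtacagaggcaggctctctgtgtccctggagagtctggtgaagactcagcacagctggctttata
The C3 window held 4 matches of the C/EBP letters, 2 of them the same bases read on both strands, and the C7 window held 2. The GAS letters read the same on both strands and were found in C7 and not in C3. Of the 32851 windows, 40.7% held the C/EBP letters, 8.30% the GAS letters and 3.44% the interferon element GAAANNGAAA, which none of the 5 matched windows held. No match of the marked motifs overlapped another in C7.

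C3 in fibroblasts was 163, 110, 74.6, 166 and 249 CPM. The 2 Tg female libraries were the lowest and Tg male 2 the highest. Lymphatic endothelium was next, with 48.0, 9.39, 35.4, 42.8 and 24.9 CPM, and did not overlap with fibroblasts. Mesothelial nuclei had 924, 1309, 305, 1741 and 1717 CPM, but from only 7, 28, 19, 3 and 48 nuclei. They were above fibroblasts in each library and held 6.98% of all C3 UMIs, against 80.9% in fibroblasts. A thinned C3 UMI was seen in 11.6% of fibroblast nuclei (SD 4.3, n = 5 libraries) and in 0.373% of cardiomyocyte nuclei, and unthinned in 21.5% and 1.70%.

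C4b had no single source. Macrophages had 35.8, 43.0, 43.4, 58.1 and 35.8 CPM, the highest of the 8 tested types. Fibroblasts had 9.53, 6.80, 9.98, 20.7 and 24.6 CPM, lower than macrophages in all 5 libraries. Schwann nuclei, the glia of cardiac nerves, had 224, 323, 260, 243 and 428 CPM from 23 to 51 nuclei a library. These were above every other named type in each library except Tg male 1, where mesothelial nuclei had 275 CPM from 3 UMIs in 3 nuclei. Because fibroblasts are many, they held 38.5% of C4b UMIs, macrophages 23.2%, unnamed nuclei 17.1% and Schwann nuclei 13.1%. Lymphatic endothelium had no C4b UMI in any library, where exact Poisson intervals reach up to 6.93 to 14.5 CPM. C4a, the near copy of C4b at chr17:34809092-34823464, was counted at 1.27 ± 1.52 CPM in macrophages (SD, n = 5), and reads shared by the copies leave C4b uncertain.

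C7 was read almost wholly from fibroblasts. Fibroblasts had 121, 111, 59.2, 268 and 587 CPM. Both male libraries lay above all 3 female libraries, and without Tg male 2 the mean was 139.9 CPM. Pericytes, next among the tested types, had a mean of 2.52 CPM, the fibroblast mean of 229 CPM being 91.1 times that. An unnamed cluster led by Dkk3 and Prg4, described below, lay between them with a mean of 110 CPM (SD 93.3). Lymphatic endothelium had no C7 UMI, with the same Poisson bounds as for C4b. Fibroblasts held 92.0% to 97.8% of all C7 UMIs. A thinned C7 UMI was seen in 6.70%, 6.99%, 3.94%, 14.6% and 25.3% of fibroblast nuclei, against 0% to 0.107% of cardiomyocyte nuclei, where the 0 of 1127 in nTg female 1 allows a share of up to 0.266%. The unthinned shares were 13.2%, 11.9%, 6.54%, 24.9% and 39.2% in fibroblasts and 0.229% to 1.27% in cardiomyocytes, at median depths of 2072 to 3012 and 5756 to 8021 UMIs. Nuclei with a C7 UMI also held more of them in the males, 1.85 and 2.09 per thinned nucleus against 1.46 to 1.60 in the females.

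**Figure D2:**
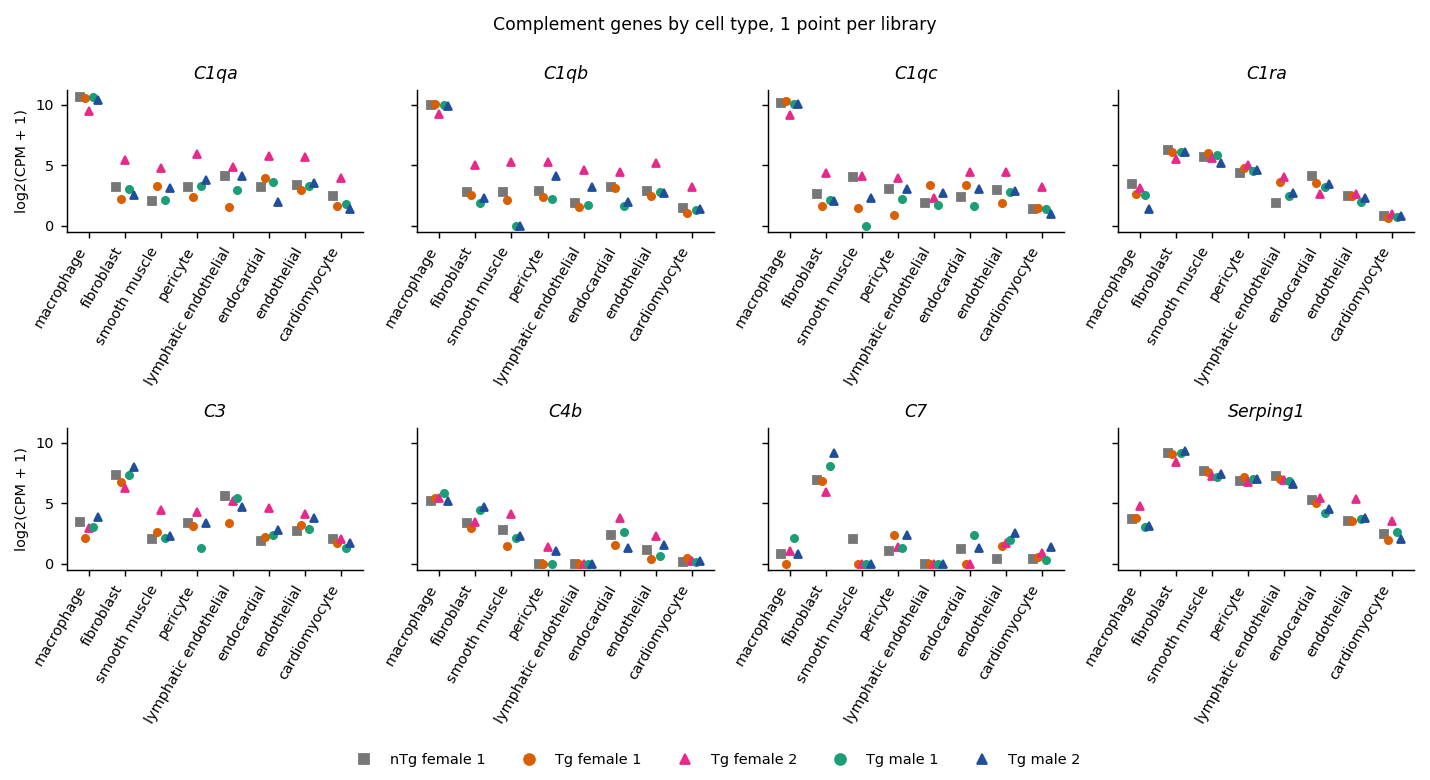
Level of each gene (log2(CPM + 1)) in the tested cell types, 1 point per library. The C1q chains peak in macrophages, C7, C3 and Serping1 in fibroblasts, and Tg female 2 (pink triangles) lies above the other libraries for the C1q chains in most types other than macrophages.

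Fibroblast sub-clusters differed in which components they carried. They are called by leading genes: Ackr3 and Gfpt2 (sub-cluster 0, 4441 nuclei), Postn and Cilp (1, 591 nuclei), Acss3 and Vit (2, 2002 nuclei), Kcnip1 and Gfra1 (3, 4237 nuclei) and Dpp4 and Sema3c (5, 323 nuclei). Sub-clusters 4 (237 nuclei) and 6 (106 nuclei) were led by cardiomyocyte genes and by A230009B12Rik and are not described. C4b was concentrated in the Acss3 nuclei, with 46.6, 23.2, 73.4, 67.8 and 65.4 CPM. The other 4 sub-clusters had 0 to 15.4 CPM of C4b, so the Acss3 nuclei were above each of them in all 5 libraries. An unnamed cluster led by Dkk3 and Prg4 (687 nuclei) scored highest for adipocyte markers, with 0 of them raised, and second for fibroblast markers. It had 115, 44.6, 70.4, 164 and 73.0 CPM of C4b. Its C7 was 105, 57.6, 16.6, 107 and 263 CPM, and its means of C3, Serping1 and C1ra were 70.6, 260 and 38.0 CPM. Dkk3 and Prg4 were also among the leading genes of the Postn nuclei.

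C3 was high in 2 sub-clusters. In the Dpp4 nuclei it was 373, 200.1, 187, 386 and 490 CPM. In the Acss3 nuclei it was 297, 273, 213, 352 and 406 CPM. The Kcnip1 nuclei had 62.3, 37.4, 31.6, 49.1 and 102 CPM and the Postn nuclei 86.7, 32.1, 47.6, 72.1 and 127 CPM, both below the Dpp4 and Acss3 nuclei in every library. C1ra was highest in the Acss3 nuclei, at 110, 109, 59.0, 102 and 96.6 CPM. In the Postn nuclei, the set with genes of activated fibroblasts, C1ra was 44.9, 35.7, 29.0, 27.0 and 15.4 CPM and below the Acss3 nuclei of the same library. Serping1 was carried by all 5, with means from 335 CPM in the Postn nuclei to 675 CPM in the Dpp4 nuclei.

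C7 followed another order. The Kcnip1 nuclei had the lowest C7 of the 5 in every library, at 31.2, 18.7, 17.8, 134 and 319 CPM. The Postn nuclei had 263, 196, 47.6, 487 and 1117 CPM. The Dpp4 nuclei had 194, 624, 159, 414 and 1135 CPM. The Ackr3 nuclei had 186, 152, 98.5, 336 and 736 CPM. In the mean, C7 was highest in the Dpp4 and Postn nuclei, at 505 and 422 CPM (347.6 CPM in the Dpp4 nuclei without Tg male 2), where C4b was low, and C3 and C7 were both low in the Kcnip1 nuclei. In the Acss3 nuclei C7 was 97.1, 48.6, 34.0, 341 and 605 CPM.

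**Figure D3:**
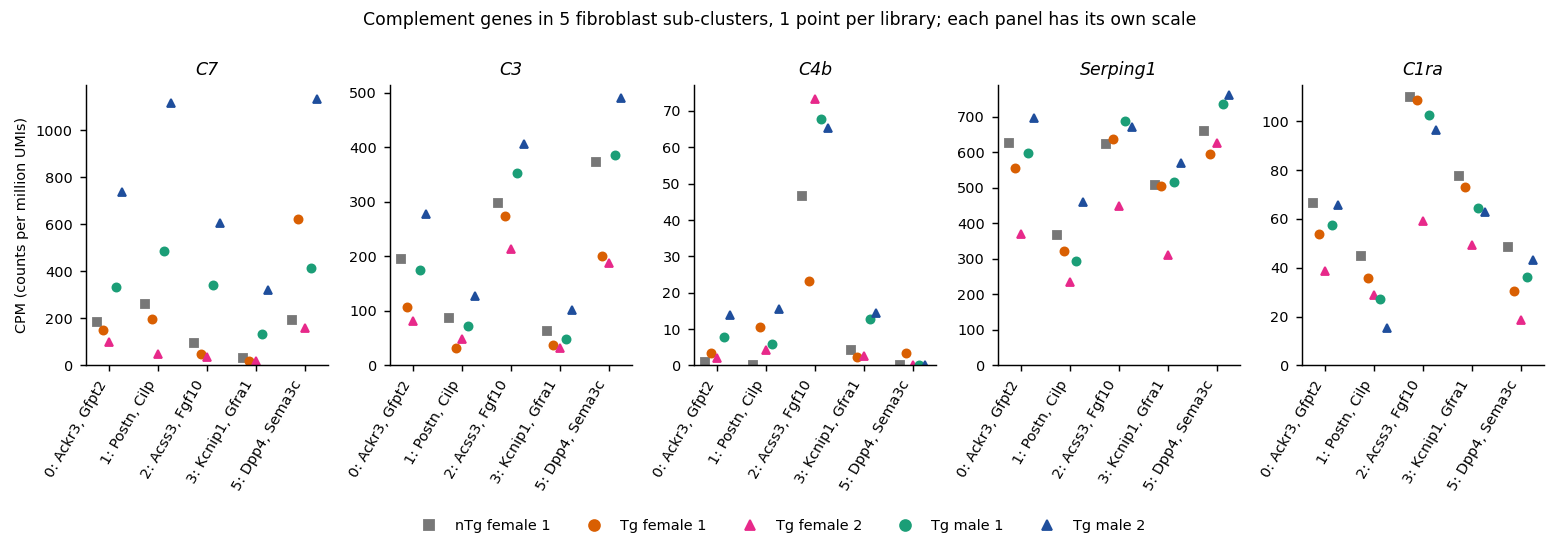
CPM of 5 genes in 5 fibroblast sub-clusters, 1 point per library, each panel on its own scale (sub-clusters 4 and 6 are not drawn). C4b stands out in the Acss3 sub-cluster, and the male libraries (green circles and blue triangles) are above the females for C7 in sub-clusters 0 to 3.

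The sex comparison in fibroblasts called 2 of the 8 genes, C7 and C4b, both lower in the females, where all 8 passed the filter. Of all 15943 genes tested, 0.552% were called, 13 higher and 75 lower in females. C7 differed by -2.40 (SE 0.41, edgeR adjusted p 0.0490), from 85.3 ± 36.9 CPM in the Tg females and 428 ± 225 CPM in the Tg males (SD, n = 2 each). C4b differed by -1.54 (SE 0.25, edgeR adjusted p 0.0463), from 8.39 ± 2.25 to 22.6 ± 2.79 CPM. All 3 female libraries were below both males for both genes, as for 8.12% of all genes tested. C3 differed by -1.25 (SE 0.26, edgeR adjusted p 0.106) and did not pass, although its 3 female values were also below both male values. Serping1 differed by -0.55 (SE 0.25, adjusted p 0.540) and C1ra by -0.38 (SE 0.22, adjusted p 0.678). The C1q chains, at 2.18 to 41.7 CPM in fibroblasts, differed by 1.55 to 2.40 and were not called. Those differences rested on Tg female 2, with 41.7 CPM of C1qa against 3.76 CPM in Tg female 1. Without it they were -0.79 for C1qa, 0.49 for C1qb and -0.64 for C1qc (edgeR adjusted p 0.475, 0.763 and 0.723).

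The calls of C7 and C4b were near the threshold and depended on the fit. On the 4 libraries labelled Tg alone, C7 had an edgeR adjusted p of 0.0669 and C4b of 0.0590, and without the genotype covariate 0.164 and 0.102. Without Tg female 1 and the covariate, an alternative chosen after the data were seen, C7 differed by -2.29 (edgeR adjusted p 0.304) and C4b by -1.27 (adjusted p 0.215). The sign stayed negative in the 12 other settings that were run on all types for C7, C4b, C3, Serping1 and C1ra alike. Without Tg female 2, where summed fibroblast markers were 12156 CPM against 17647 to 18337 CPM in the other libraries, C7 differed by -2.01 (edgeR adjusted p 0.00118), C4b by -1.80 (adjusted p 0.000918) and C3 by -0.98 (adjusted p 0.00886). Without Tg male 2, C7 differed by -1.73 (edgeR adjusted p 0.0471), C4b by -1.40 (adjusted p 0.163) and C3 by -0.93 (adjusted p 0.554). The labels do not say whether the libraries came from separate animals, so the p-values measure only the spread between these libraries, which may be technical. That spread is one that edgeR draws together over genes: the fit in fibroblasts had 2 residual degrees of freedom, and the SE from the Tg libraries' own log2(CPM + 1) values was 0.72 for C7, 0.28 for C4b and 0.40 for C3.

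The difference in C7 was also present within sub-clusters. The same test was run in the 4 fibroblast sub-clusters with at least 50 nuclei in every library, a step chosen after the data were seen. C7 was called in the Ackr3, Acss3 and Kcnip1 nuclei, with differences of -2.16 (SE 0.34, edgeR adjusted p 0.0129) in the Ackr3 nuclei, -3.52 (SE 0.30, adjusted p 5.91e-07) in the Acss3 nuclei and -3.70 (SE 0.37, adjusted p 0.000437) in the Kcnip1 nuclei. The SE from the libraries' own values was 0.64, 0.48 and 0.62. In the Postn nuclei C7 differed by -2.72, but there edgeR took the spread wholly from other genes (SE 0.28, against 1.17 from C7's own values), so no p from that fit is given. Of all genes, 0.665%, 0.689%, 1.11% and 0.741% passed the threshold in the Ackr3, Postn, Acss3 and Kcnip1 nuclei. Every female library was below both males in each, as for 8.29%, 9.58%, 9.24% and 8.87% of all genes. The male mean over the Tg female mean was 4.28 in the Ackr3 nuclei and 12.4 in the Kcnip1 nuclei, where C7 was the lowest of the 4 in both sexes. In the Dpp4 nuclei, not tested for their number, Tg female 1 (624 CPM) was above Tg male 1 (414 CPM).

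C3 was called in the Ackr3 nuclei (-1.33, SE 0.25, edgeR adjusted p 0.0339) and not in the Acss3 and Kcnip1 nuclei (adjusted p 0.220 and 0.140). In the Ackr3 nuclei nTg female 1, at 195 CPM, was above the lower male, at 174 CPM, while in the Acss3 nuclei all 3 females were below both males. C4b did not pass the filter on low counts in the Postn nuclei. Among the others it was called in the Kcnip1 nuclei alone (-2.59, SE 0.47, edgeR adjusted p 0.0309). The means there were low, at 2.36 CPM in the Tg females and 13.7 CPM in the Tg males. In the Acss3 nuclei, where the level of C4b was highest, it differed by -0.72 (SE 0.35, adjusted p 0.608), and whether these differences differ between sub-clusters was not tested. The Acss3 nuclei made up 16.2%, 16.7%, 10.4%, 19.9% and 21.8% of fibroblast nuclei, the largest shares being those of the males. The part of these shares in the C4b difference over all fibroblasts was not tested.

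**Figure D4:**
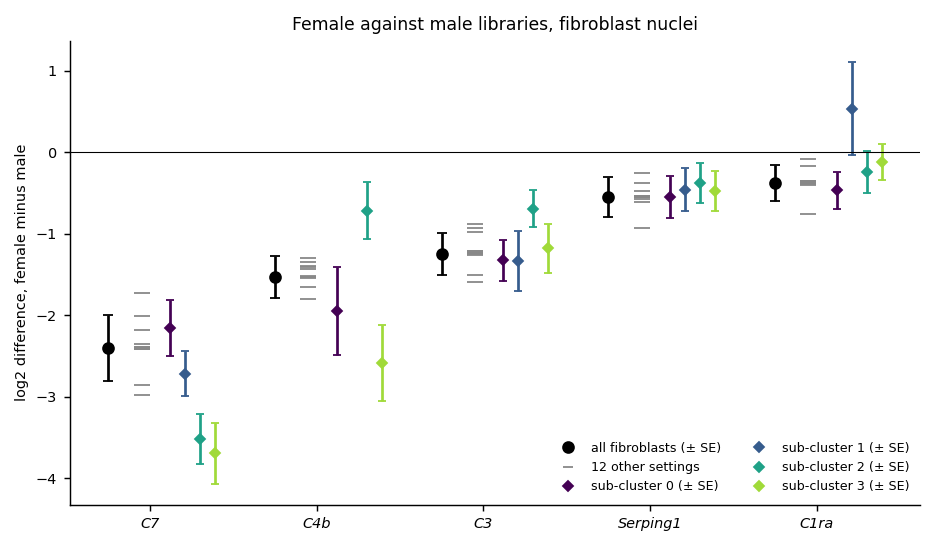
Log2 difference, female minus male, of 5 genes in fibroblasts: all fibroblasts with SE (black), 12 other settings (grey dashes) and sub-clusters 0 to 3 with edgeR's SE (coloured diamonds). C7 lies between -1.73 and -3.70 at every point, while Serping1 and C1ra lie between -0.93 and 0.53.

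In the other 6 tested types, no gene of the 8 was called by edgeR in the sex comparison. The genes that passed the filter numbered 7 in cardiomyocytes, 6 in the endocardium, 8 in the endothelium, 3 in lymphatic endothelium, 6 in pericytes and 2 in smooth muscle. At an unadjusted p under 0.05 there were 2, 2, 1, 0, 0 and 0 of them, where 6.88%, 7.26%, 8.84%, 6.48%, 6.52% and 5.83% of all genes lay, and DESeq2 called 0 in each of the 6. Those under that p were all C1q chains, higher in females. They were C1qa and C1qc in cardiomyocytes, C1qa and C1qb in the endocardium and C1qb in the endothelium. Summed C1q outside macrophages was 70.7 CPM in Tg female 2 and 9.30 to 15.4 CPM in the others. The fits of these chains without Tg female 2 are not given. The background shares of genes called were 0.0245%, 0.315%, 0.165%, 0.435%, 0.181% and 0.994%. Serping1 in the endocardium was 36.5 ± 7.54 CPM in Tg females and 19.7 ± 2.92 CPM in Tg males (SD, n = 2 each), a difference of 0.78 (SE 0.37, edgeR adjusted p 0.691). Serping1 in pericytes differed by -0.02 (SE 0.22, adjusted p 0.994), from 126 to 130 CPM. Both Tg females were below both males in fibroblasts and above them in a second type for C1ra in pericytes, as for 1.10% of all genes tested in both types, and for Serping1 in the endocardium (1.96% of all genes) and in lymphatic endothelium (1.71%). The difference between types was not tested.

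Genotype could not be tested, with 1 nTg library. C3 in fibroblasts of nTg female 1 was 163 CPM (exact Poisson 95% interval 153 to 174), above Tg female 1 at 110 CPM (103 to 117) and Tg female 2 at 74.6 CPM (67.7 to 82.0). C7 was 121 CPM (112 to 130) in nTg female 1 and 111 CPM (104 to 119) in Tg female 1, intervals that overlap, and 59.2 CPM (53.0 to 65.8) in Tg female 2, below both. C4b was 9.53 CPM (7.23 to 12.3), 6.80 CPM (5.13 to 8.83) and 9.98 CPM (7.56 to 12.9) in the same libraries, all overlapping. The intervals cover counting error only, and Ccna2 contradicted both labels, nTg and Tg, for the first replicates of the females, so no direction by genotype was read.

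Of 46 other complement genes listed, 45 were in the files and 24 reached a mean of 10 CPM in at least 1 tested type. Of these 24, 9 were highest in macrophages, 5 in the endocardium, 3 in pericytes and 1 in fibroblasts. Among the highest in fibroblasts were the collectin Colec12 (524 ± 90.2 CPM), the surface regulator Cd55 (159 ± 29.97 CPM), the C1r partner protease C1s1 (150 ± 30.6 CPM) and the surface regulator Cr1l (143 ± 9.70 CPM; SD, n = 5 for each). Among the highest in macrophages were Colec12 (1982 ± 251 CPM), the C3 fragment receptor Vsig4 (383 ± 86.4 CPM), the C5a receptor C5ar1 (282 ± 54.9 CPM) and the integrin Itgam (228 ± 29.7 CPM). C1s1 was highest in smooth muscle at 444 ± 87.8 CPM, like C1ra a transcript of mural cells and fibroblasts.

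In the sex comparison, 0 of 25 tested genes of this list were called in fibroblasts and 0 of 20 in macrophages by edgeR, with 2 and 0 at an unadjusted p under 0.05. Over all genes, 0.552% and 0.278% were called, and 9.65% and 8.48% had such an unadjusted p. The median differences were 0.16 and 0.08, against 0.03 and 0.01 over all genes tested. C1s1 in fibroblasts was 164, 127, 108, 178 and 172 CPM, a difference of -0.66 (SE 0.18, edgeR adjusted p 0.212). In smooth muscle Colec12 was called, higher in females. It was 70.7, 221, 37.3, 20.4 and 19.3 CPM (log2 difference 2.85, edgeR adjusted p 0.000147), highest in Tg female 1. Without Tg female 1 the difference was 0.95 (edgeR adjusted p 0.767), and with DESeq2 it was not called (adjusted p 0.9998). No member of the list was called in the other 5 types.

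Genes whose levels most resembled those of the 8 were ranked by the Pearson correlation of log2(CPM + 1) over 40 sums of 8 types and 5 libraries, among 13835 genes. These points share libraries and types, so the coefficients are descriptions. Lyz2, the lysozyme of myeloid cells, came first for C1qa (r = 0.975) and C1qb (r = 0.966), and Laptm5 for C1qc (r = 0.956). C1qa and C1qb correlated at 0.960 with each other. Fgf10, a growth factor, was first for C7 (r = 0.947), and Clec3b for C3 (r = 0.865). Cys1 was first for C1ra (r = 0.928), followed by the collagen gene Col6a3 (r = 0.905), and Antxr1, an anthrax toxin receptor, for Serping1 (r = 0.924). C1ra and Serping1 correlated at 0.876, and C4b had its highest value with Gm20528 (r = 0.866).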

How the data were processed

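UMI counts per gene and barcode were used as deposited by the authors; per the file headers they come from Cell Ranger 7.0.0, and the submitters' processing notes name mm10. Whether introns were counted, and on which strand, is not given in the sources used here. The matrices of nTg female 2, nTg male 1 and nTg male 2 repeated those of Tg female 2, Tg male 1 and Tg male 2, did not match their own barcode lists and were not used. The 8 genes and all gene lists were chosen with earlier results of these data known.

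The filter on barcodes required at least 200 genes and a mitochondrial share under 5%. Scrublet in scanpy 1.11.5, run on each library at an expected 6%, marked doublets. In Tg female 2 its automatic threshold called 0%, so the median threshold of the other libraries was used there, a choice made after seeing the data. Between 7.63% and 11.4% of barcodes were removed as doublets. Nuclei were clustered together on 2000 variable genes centred within each library, 30 principal components, 15 neighbours and Leiden resolution 1. Clustering did not use the 8 genes, the other complement genes, Ccna2 or genes linked to sex. Clusters were named for the type whose markers were most raised (mean log2 fold), provided at least 3 markers were raised and the 10 leading genes did not go against the name. Set after seeing the clusters were 3 rules: a leading gene is in at least 25% of nuclei, a type leads the next by 0.5, and clusters led by 3 or more cell-cycle genes stay unnamed. The unnamed clusters held 895 nuclei, 687 of them in the Dkk3 and Prg4 cluster. Fibroblasts and macrophages were clustered again at resolution 0.5.

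Counts were summed per library and type. CPM are these sums per 1000000 UMIs, and thinned shares use 1000 UMIs per nucleus, leaving out shallower nuclei. The sex test was edgeR 4.0.16 (filterByExpr, TMM, quasi-likelihood, genotype covariate, Benjamini-Hochberg, threshold 0.05), checked on simulated data. DESeq2 1.42.0, other filters, doublet, resolution, covariate and replicate-block settings and leaving out each library were alternatives. Intervals are exact Poisson at 95% and cover counting error only. All 8 genes are named, and other complement genes where called or among the 5 highest in fibroblasts or macrophages, except for 1 item that is not reported here. Sequences are RefSeq promoters.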

Additional observations from a re-analysis of the deposited data

Results flagged for a closer look

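In 15 combinations of gene and type with a mean of at least 20 CPM, the 5 libraries were searched for 1 value far from the rest, and 3 were found. Chance flags about 1 in 20 single combinations. The combinations share libraries and nuclei, so the 3 found cannot be set against that rate. All 3 were low values of Tg female 2. C1qa in macrophages was 715.5 CPM there, with 1385 CPM in the nearest library. C1qb in macrophages was 612 CPM, with 965 CPM in the nearest. C1ra in fibroblasts was 43.8 CPM, with 66.9 CPM in the nearest. Summed markers of the type were also lowest in that library, at 14964 CPM in macrophages against 19927 to 20371 CPM, and at 12156 CPM in fibroblasts against 17647 to 18337 CPM. The part of this in the 3 values was not tested.

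For 2 genes, both Tg female libraries lay on opposite sides of both Tg male libraries in 2 types. C1ra was lower in the females in fibroblasts, with a log2 ratio of the means of -0.30, and higher in pericytes, at 0.33. Serping1 was lower in the females in fibroblasts, at -0.46, and higher in the endocardium, at 0.89, and in lymphatic endothelium, at 0.22. Such a pattern with fibroblasts was seen in 1.10% of all genes for pericytes, 1.96% for the endocardium and 1.71% for lymphatic endothelium. None of these single differences was called by edgeR, and the difference between types was not tested.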

How the results depend on the processing

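The main fit called 4, 33, 23, 88, 36, 33, 20 and 66 genes between the sexes in cardiomyocytes, endocardium, endothelium, fibroblasts, lymphatic endothelium, macrophages, pericytes and smooth muscle, and these counts moved with most settings. DESeq2 called 86 in cardiomyocytes, 95 in endothelium, 206 in fibroblasts, 11 in lymphatic endothelium and 4 in smooth muscle. Without the filter on low counts there were 187, 149, 389, 689, 67, 247 and 90 calls in the first 7 types. With at least 10 UMIs in every library there were 0, 11, 15, 52 and 7 in the first 5 and 17 in smooth muscle. The 0 in cardiomyocytes was edgeR's, with 932 genes at an unadjusted p under 0.05. DESeq2 was run only with the main filter, where it called the 86 given above. Without the genotype covariate there were 14 in endocardium, 6 in endothelium, 14 in fibroblasts, 6 in lymphatic endothelium, 7 in macrophages, 6 in pericytes and 4 in smooth muscle. Without doublet removal there were 67 in lymphatic endothelium, 12 in macrophages, 31 in pericytes and 11 in smooth muscle, at clustering resolution 0.5 58 in fibroblasts, and on the 4 libraries labelled Tg 19 in lymphatic endothelium and 7 in smooth muscle. Leaving out 1 Tg library gave 46 to 256, 21 to 243, 108 to 515, 54 to 1464, 16 to 158, 19 to 283, 29 to 495 and 31 to 173 calls in the 8 types. Of the 8 complement genes, fibroblasts had 2 called in the main fit, 1 without doublet removal, 0 at resolution 0.5, 6 without the filter, 0 with at least 10 UMIs in every library, 0 on the Tg libraries alone, 0 without the covariate, 1 in the Acss3 sub-cluster alone 1 to 8 when 1 library was left out, and 0 without both Tg female 1 and the covariate, an alternative chosen after seeing the data. Where edgeR takes little spread from the gene itself, as in fits with 1 library left out (1 residual degree of freedom) and in fibroblasts without the filter, more calls do not show a firmer difference. Where edgeR called 0 of the 8 complement genes, 4 or 5 had an unadjusted p under 0.05. DESeq2, run only in the main setting, called 3. In the main fit of fibroblasts, 9.65% of all genes lay under that p. The shares of all genes in the other fits are not given. The counts of called members here are therefore not a result about the 8 genes. In endothelium 2 were called without the filter and 0 to 4 with 1 library left out. Leaving out 1 library gave 0 to 3 in cardiomyocytes, 0 to 1 in endocardium, 0 to 3 in macrophages and 0 to 2 in pericytes, where the main fit had 0.

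The replicate numbers of the Tg females and males are shared, but nothing in the labels pairs the libraries. Deviations of same-numbered libraries correlated at -0.02 to 0.13 over the 8 types, and with 2 pairs the libraries share only a number. With the replicate number as a block, 57, 134, 418, 22, 54, 68 and 13 genes were called in cardiomyocytes, endothelium, fibroblasts, lymphatic endothelium, macrophages, pericytes and smooth muscle, and 4 of the 8 complement genes in fibroblasts.

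Some signs turned, with edgeR adjusted p from 0.604 to 0.9997: C3 in lymphatic endothelium without Tg female 1 (0.0076), C4b in macrophages without Tg male 1 (0.25), Serping1 in pericytes without doublet removal (0.072) and without Tg female 2 (0.15), and C1qa, C1qb and C1qc in macrophages without Tg female 2 (0.016, 0.15 and 0.27). With 1 library left out, the lowest values of these were -1.88, -0.44, -0.26, -1.13, -0.73 and -0.96 for C3, C4b, Serping1, C1qa, C1qb and C1qc. C1qb in macrophages averaged 693 CPM without doublet removal, and 891 to 1010 CPM with 1 library left out. Unthinned shares of nuclei were 81.8%, 75.1% and 75.8% for C1qa, C1qb and C1qc and 7.40% for C4b in macrophages, and 15.2%, 21.5% and 68.0% for C1ra, C3 and Serping1 in fibroblasts. Sub-clusters with few nuclei in any library were left out of the next comparison. At sub-clustering resolution 0.3 the highest remaining fibroblast sub-cluster had 73.7 CPM of C1ra, 22.6 CPM of C4b and 589 CPM of Serping1. With 1 library left out, these were 91.7 to 104 CPM, 50.8 to 63.3 CPM and 654 to 696 CPM at resolution 0.5. Left out at resolution 0.3 were 86 nuclei with a mean of 88.3 CPM of C1ra. Also left out were 11 nuclei with means of 135 CPM of C1ra and 3761 CPM of Serping1, from 3 and 43 UMIs. Where 1 library is left out, the lone library of its group is assumed to vary like the others. Depth limits the low genes: C4b in fibroblasts rests on 56 to 150 UMIs per library, and smooth muscle and lymphatic endothelium on 77 to 211 nuclei.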
